A study of Mus musculus with 20 samples.

Results

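The genes Ung, Smug1, Apex1, Apex2, Msh6, Pms2 and Exo1 encode enzymes that process uracil and mismatched bases in DNA during antibody class switching, and they were taken by symbol from the count table of each library, 7 of the 41115 genes listed there. All 7 passed the filter on low counts. The libraries were poly-A messenger RNA of mouse cells labelled spleen, 10 untreated and 10 given LPS (lipopolysaccharide, a component of bacterial outer membranes), IL4 (interleukin 4) and TGFb (transforming growth factor beta), collected at 0, 15 and 30 min and 1, 2, 3, 6, 12, 24 and 48 h. The design text names this mixture as one that stimulates AID and gives 1 treated and 1 untreated mouse, so each arm had 1 library per time and arm and animal cannot be told apart. Strain, sex and age of the mice are not given in the labels, and no genotype is named. Times were grouped as early (15 min to 1 h), middle (2 to 6 h) and late (12 to 48 h), 3 times each, and the times of a phase stood in for replicates, so errors and p-values measure spread between times and not between animals.

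AID, the activation-induced cytidine deaminase of B cells, turns cytosine into uracil in the switch regions of the immunoglobulin heavy chain locus. The uracil is removed by a uracil glycosylase and the resulting abasic site is cut by an AP endonuclease, or the U:G mismatch is bound by mismatch repair proteins and the strand is opened and resected. Both routes give the DNA breaks that class switching joins, and the same enzymes repair uracil and mismatches elsewhere in the genome, mostly in dividing cells.

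The main uracil glycosylase of this pathway is Ung (GRCm38 chr5:114130386-114139323, plus strand, 6 exons, principal transcript of 2136 bases), and Smug1 (chr15:103153290-103167092, minus strand, 3882 bases) is a second one. Apex1 (chr14:50924968-50927139, plus strand, 1239 bases) is the major AP endonuclease, and Apex2 (chrX:150519519-150589868, minus strand, 4742 bases) a related enzyme with stronger exonuclease activity. Msh6 (chr17:87975062-87990892, plus strand, 4251 bases) is the mismatch-binding subunit for single mispaired bases, Pms2 (chr5:143909964-143933968, plus strand, 5482 bases) is the MutL subunit that nicks the strand, and Exo1 (chr1:175880581-175913489, plus strand, 7796 bases) is the exonuclease that removes it. Positions and lengths are from GENCODE vM21. Apex1, Apex2 and Msh6 overlap genes on the other strand (Tmem55b, Alas2 and Pfkfb1, and Fbxo11), and reads there cannot be told apart where counting ignored strand. Pms2 overlaps Rsph10b, not analysed here, on its own strand, where strand does not tell reads apart. Tmem55b was at 26.6 to 39.6 CPM, Alas2 at no more than 0.923 CPM, Pfkfb1 at 4.12 to 9.90 CPM and Fbxo11 at 200 to 568 CPM over the 20 libraries (CPM, a count divided by the library total times its TMM factor, on a scale common to all libraries).

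Start-site sequences of Ung and Msh6, the proteins that open the uracil and the mismatch route, are shown because both messages peaked at 3 h in both arms, as described below. The stretches, from the RefSeq promoter table of GRCm38.p6, end where the GENCODE gene model or the RefSeq start begins, with a CCAAT box on either strand in capitals.
Ung, chr5:114130185-114130385, plus strand: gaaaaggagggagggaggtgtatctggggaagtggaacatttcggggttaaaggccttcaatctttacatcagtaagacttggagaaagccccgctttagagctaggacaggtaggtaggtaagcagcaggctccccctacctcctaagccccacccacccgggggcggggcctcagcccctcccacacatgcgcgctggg
Msh6, chr17:87974800-87975049, plus strand: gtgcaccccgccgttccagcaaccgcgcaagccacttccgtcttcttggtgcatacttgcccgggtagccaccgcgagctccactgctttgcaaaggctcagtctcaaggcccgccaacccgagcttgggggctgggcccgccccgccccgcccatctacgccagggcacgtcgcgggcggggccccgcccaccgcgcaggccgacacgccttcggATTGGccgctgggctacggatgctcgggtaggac
The Msh6 stretch had 70.8% G or C and 27 CG dinucleotides in 250 bases, and the Ung stretch 58.7% and 6 in 201 bases.

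The table held a promoter for 5 of the 7 genes, Ung, Smug1, Apex1, Msh6 and Pms2, and none was found for Apex2 and Exo1. Each was searched on both strands from 250 bases before to 50 bases after the start for E2F-type letters (TTTCCCGC, TTTCGCGC, TTTGCCGC or TTTGGCGC) and for CCAAT, which do not overlap one another. E2F-type letters stood in 744 of 32851 promoters of the table (2.26%) and in that of Msh6 alone among the 5, 16 bases after the start. CCAAT stood in 12289 promoters (37.4%) and in 4 of the 5, with none in that of Ung. The matches are shown in windows of 30 bases with the matched letters in capitals (ATTGG is CCAAT on the other strand).
Msh6, E2F-type, chr17:87975054-87975083: ctcctcccgacTTTCCCGCcagcggcggcc
Msh6, CCAAT, chr17:87975005-87975034: cacgccttcggATTGGccgctgggctacgg
Pms2, CCAAT, chr5:143909837-143909866: cccgagctttcATTGGccgggctggtctaa
Pms2, CCAAT, chr5:143909882-143909911: ctttgagttggCCAATcaccggtaaagagg
Pms2, CCAAT, chr5:143909957-143909986: gtcaaaagcaaCCAATgggtgttccaggag
Apex1, CCAAT, chr14:50924893-50924922: tgccaggaggaCCAATcatcgcgctccaga
Apex1, CCAAT, chr14:50924950-50924979: acgtgaccacaCCAATcgcccacgtgggaa
Smug1, CCAAT, chr15:103163493-103163522, minus strand: gtggatgaggtATTGGggatggctgcagag
A match describes letters in this window and shows no binding. By the GENCODE positions above, the searched stretch of Smug1 lay inside the gene. The matched letters of the last Pms2 window also lay inside the gene model.

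The libraries held between 36873155 and 60918651 counts, and a gene with 3 counts stood at 0.0464 to 0.0750 CPM, well under any level given here. Of 6 B cell markers 6 were expressed, with a summed level of 1517 to 1768 CPM untreated and 1373 to 1775 CPM stimulated, while T cell markers, 1 of 5 expressed, summed to at most 6.50 CPM (Cd4 up to 5.21 CPM, Cd3e up to 0.224 CPM) and NK cell markers, 1 of 4 expressed, to at most 17.9 CPM, with Prf1 up to 17.8 CPM and Gzma at 0. Of the plasma cell markers 3 of the 4 listed were expressed, summing to 688 to 1082 CPM untreated and 499 to 926 CPM stimulated, with Sdc1 at most 0.178 CPM. Macrophage and monocyte markers, 4 of 6 expressed, summed to 25.8 to 62.4 CPM untreated and 39.5 to 98.1 CPM stimulated (Csf1r up to 42.7 CPM, Emr1 up to 36.1 CPM, Lyz2 at most 0.0771 CPM), and dendritic cell markers, 2 of 4, to 17.3 to 27.2 and 26.8 to 65.2 CPM. These sums differed in range between the arms, and their part in the differences between arms below was not tested. In bulk RNA, fewer cells of a type and less RNA per cell cannot be told apart. The 2 arms were never in the same sequencing lane at the same time.

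Per kilobase of principal transcript, Apex1 had the highest level of the 7 messages, with a median over the 20 libraries of 87.3 CPM per kb (61.1 to 138). Msh6 followed at 49.3 CPM per kb (44.7 to 66.8) and Ung at 38.9 CPM per kb (28.5 to 72.8). Exo1 stood at 15.3 CPM per kb (11.8 to 19.9), Pms2 at 9.89 (6.34 to 12.0) and Smug1 at 8.79 (6.45 to 10.2). Apex2 was lowest at 3.23 CPM per kb (1.77 to 4.56). The ranges of neighbours in this order overlapped, except those of Ung and Exo1 and those of Smug1 and Apex2. Of each pair of enzymes with one activity, the main one was the more abundant message in every library.

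**Figure D1:**
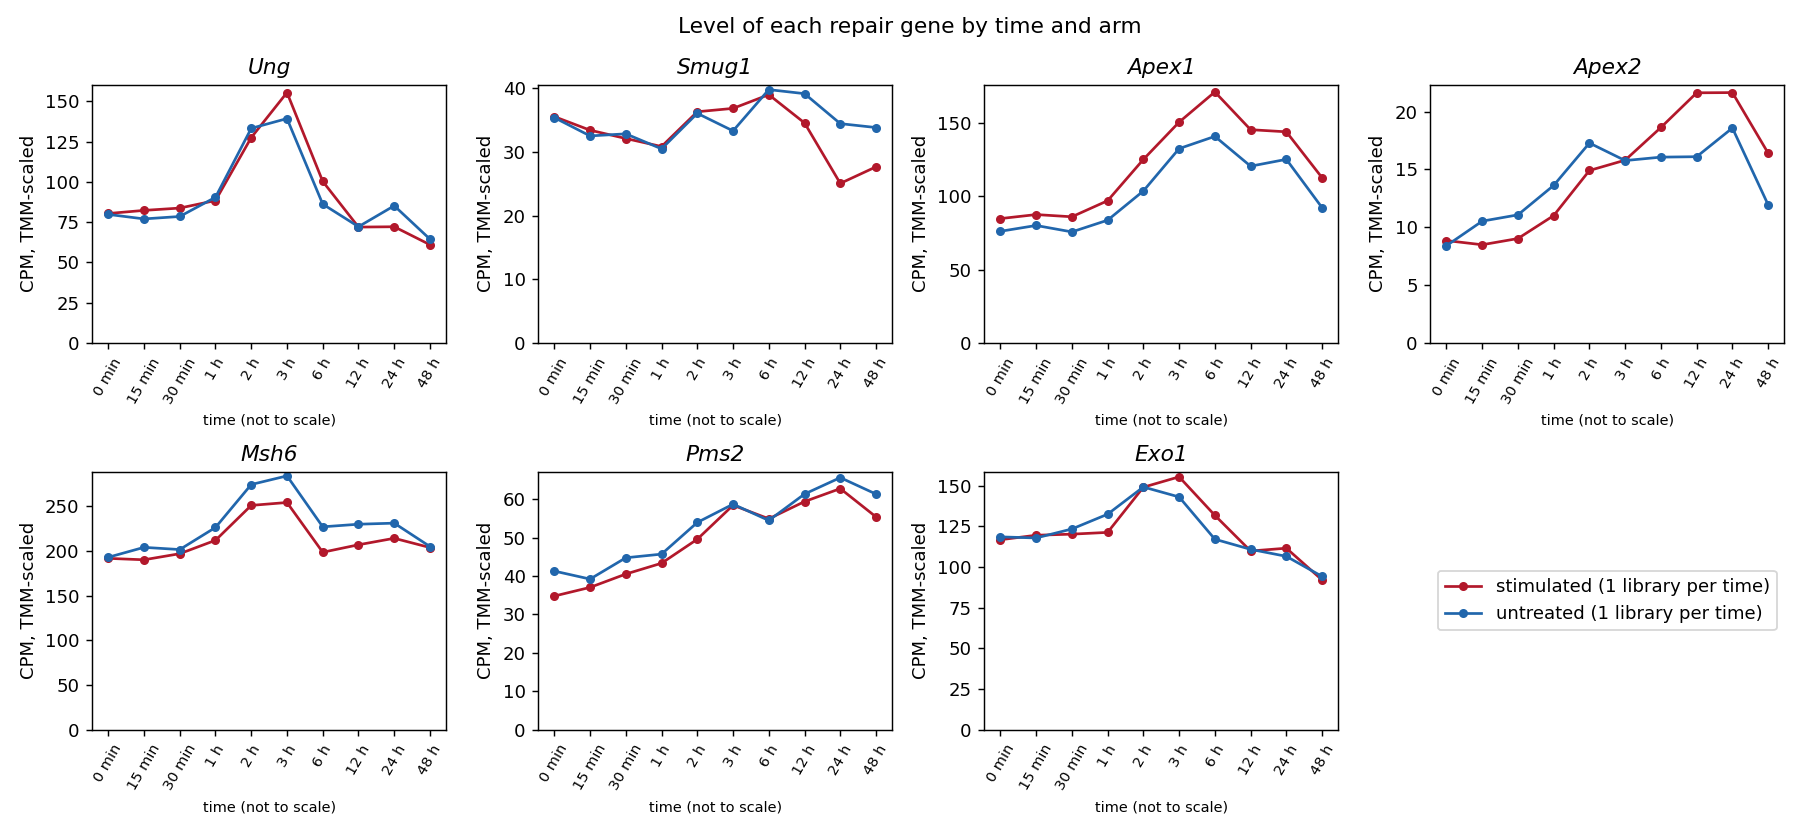
Level of each of the 7 genes (vertical axis, TMM-scaled CPM, from 0) at the 10 times (horizontal axis, evenly spaced and not to scale) in the stimulated (red) and untreated (blue) arm, with 1 library per point and no error. Ung reached 155.5 CPM stimulated and 139.3 CPM untreated at 3 h and came down to 60.9 and 64.4 CPM at 48 h, and the 2 arms followed one another in most panels.

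In a fit of both arms together, levels of the 7 messages changed over the 48 h, as did those of most genes tested. That fit has 1 term for arm and does not test the change within each arm. A course over time common to both arms (spline of 3 degrees of freedom, edgeR quasi-likelihood F-test) passed for 7 of 7 genes, where 82.5% of all genes tested passed, with adjusted p between 1.8e-09 for Apex1 and 0.021 for Smug1. A course that differed between the arms passed for 0 of 7, against 5.58% of all genes, with the smallest adjusted p 0.14 for Apex2. DESeq2 called 1 of 7 there, Apex2 (adjusted p = 0.034), as did the fit without the 24 h pair (adjusted p = 0.049). Smug1's common course was lost when the 0 min, 15 min, 30 min, 1 h or 6 h pair was left out (adjusted p between 0.056 and 0.11) and with a spline of 2 degrees of freedom (adjusted p = 0.35).

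Ung, the glycosylase, gave a peak at 2 and 3 h. In the stimulated arm its level was 80.3 CPM at 0 min, 82.3, 83.7 and 88.4 CPM in the early phase, 127.5, 155.5 and 100.3 CPM in the middle phase and 71.9, 72.1 and 60.9 CPM in the late phase. In the untreated arm it was 79.8 CPM at 0 min, then 77.0, 78.5 and 90.4 CPM, then 133.3, 139.3 and 86.2 CPM, then 72.1, 85.1 and 64.4 CPM. At 3 h Ung stood at 194% of the 0 min library with the cocktail and at 175% without it, and at 48 h at 75.8% and 80.7%. Middle and early libraries did not overlap in the stimulated arm, and overlapped in the untreated arm through the 6 h library. Such statements, here and for the genes below, compare 3 libraries with 3. The share of all genes without overlap was not counted.

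Exo1, the resecting exonuclease, had nearly the shape of Ung at a smaller size. Stimulated libraries gave 116.7 CPM at 0 min, then 119.5, 120.1 and 121.2 CPM, then 149.0, 155.4 and 131.7 CPM, then 109.8, 111.5 and 92.0 CPM. Untreated ones gave 118.5 CPM at 0 min, then 117.8, 123.3 and 132.4 CPM, then 149.2, 143.0 and 117.0 CPM, then 110.8, 106.5 and 94.2 CPM. All late Exo1 libraries were below all early ones of their arm, and the 48 h libraries stood at 78.8% (stimulated) and 79.5% (untreated) of 0 min. Over the 20 libraries, log levels of Ung and Exo1 had a Pearson r of 0.93, the highest among the 21 pairs of these genes.

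Msh6, the mismatch-binding subunit, also had its highest libraries at 2 and 3 h. It was at 191.7 CPM at 0 min in the stimulated arm, then 190.1, 197.0 and 212.0 CPM, then 251.1, 254.3 and 198.6 CPM, then 207.0, 214.2 and 203.8 CPM. Untreated, it was at 193.0 CPM at 0 min, then 204.1, 201.6 and 226.4 CPM, then 274.5, 284.1 and 227.1 CPM, then 230.0, 231.2 and 205.0 CPM. Its span between the lowest and highest library was 1.34-fold stimulated and 1.47-fold untreated, against 2.55-fold and 2.16-fold for Ung. The middle libraries of Msh6 were all above the early ones in the untreated arm and overlapped them in the stimulated arm.

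Apex1, the major AP endonuclease, was higher from 2 h on. It had 84.8 CPM at 0 min in the stimulated arm, then 87.5, 86.0 and 97.0 CPM, then 125.2, 150.6 and 171.2 CPM, then 145.5, 144.0 and 112.7 CPM. Untreated Apex1 had 76.1 CPM at 0 min, then 80.1, 75.7 and 83.7 CPM, then 103.6, 132.6 and 140.9 CPM, then 120.6, 125.2 and 92.2 CPM. Its highest library was that of 6 h in both arms, 2.02-fold above the lowest with the cocktail and 1.86-fold without it, and middle and late libraries all lay above the early ones of their arm.

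Apex2, the exonuclease-type paralog of Apex1, had its highest libraries later than Apex1. Stimulated libraries gave 8.84 CPM at 0 min, then 8.48, 9.02 and 11.0 CPM, then 14.9, 15.8 and 18.6 CPM, then 21.6, 21.6 and 16.4 CPM. Untreated libraries gave 8.40 CPM at 0 min, then 10.5, 11.1 and 13.6 CPM, then 17.3, 15.8 and 16.1 CPM, then 16.1, 18.6 and 11.9 CPM. The highest library of each arm was that of 24 h, 2.55-fold above the lowest stimulated and 2.21-fold above the lowest untreated. All late stimulated libraries lay above the early stimulated ones, while in the untreated arm the 48 h library lay among the early ones.

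Pms2, the nicking subunit, had its highest library at 24 h in both arms. It was at 34.8 CPM at 0 min with the cocktail, then 37.0, 40.5 and 43.3 CPM, then 49.6, 58.4 and 54.9 CPM, then 59.4, 62.8 and 55.4 CPM. Without it Pms2 was at 41.3 CPM at 0 min, then 39.2, 44.8 and 45.7 CPM, then 54.0, 58.7 and 54.5 CPM, then 61.4, 65.6 and 61.3 CPM. No middle or late library of Pms2 overlapped an early one of its arm.

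Smug1, the second glycosylase, had the narrowest span of the 7 genes in the untreated arm, and a wider one than Msh6 in the stimulated arm. In the untreated arm it went from 35.4 CPM at 0 min to 32.5, 32.8 and 30.5 CPM, then 36.1, 33.3 and 39.8 CPM, then 39.2, 34.4 and 33.8 CPM, a span of 1.31-fold. In the stimulated arm it went from 35.5 CPM to 33.4, 32.1 and 30.8 CPM, then 36.3, 36.8 and 39.0 CPM, then 34.6, 25.0 and 27.7 CPM, a span of 1.56-fold. Its 24 and 48 h stimulated libraries were the lowest of its 20. Middle libraries of Smug1 all lay above the early ones in both arms, and late ones did so in the untreated arm only.

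Tested phase against phase, 5 of the 7 genes were higher in the middle than in the early phase of the untreated arm and 0 were lower, where 25.4% of all genes passed, 13.6% as higher and 11.9% as lower. In the untreated arm Apex1 rose by 0.65 ± 0.15 on the log2 scale (SE, 3 times per phase, adjusted p = 0.0071), Ung by 0.54 ± 0.17 (adjusted p = 0.033), Apex2 by 0.48 ± 0.17 (adjusted p = 0.049), Pms2 by 0.37 ± 0.09 (adjusted p = 0.011) and Msh6 by 0.31 ± 0.10 (adjusted p = 0.039). In the stimulated arm 5 of 7 were higher and 0 lower, against 41.3% of all genes, 22.1% as higher and 19.3% as lower. There Apex2 rose by 0.79 ± 0.17 (adjusted p = 0.0026), Apex1 by 0.72 ± 0.15 (adjusted p = 0.0018), Ung by 0.59 ± 0.17 (adjusted p = 0.014), Pms2 by 0.43 ± 0.09 (adjusted p = 0.0023) and Exo1 by 0.27 ± 0.11 (adjusted p = 0.048). Msh6 did not pass in the stimulated arm (0.23, adjusted p = 0.085), nor Exo1 in the untreated arm (0.13, adjusted p = 0.36), nor Smug1 in either (0.19 untreated and 0.22 stimulated). Whether these middle changes differed between the arms was not tested.

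Several of the middle calls were lost when single times were left out. In the untreated arm this held for Ung without 15 min, 30 min, 1 h, 2 h or 3 h (adjusted p between 0.052 and 0.14), Apex2 without 15 min, 30 min, 2 h, 3 h or 6 h (0.067 to 0.17), Msh6 without 15 min, 30 min, 2 h or 3 h (0.082 to 0.16), Pms2 without 15 min, 30 min or 3 h (0.051 to 0.063) and Apex1 without 30 min (0.051). In the stimulated arm it held for Ung without 15 min, 30 min or 3 h (adjusted p between 0.054 and 0.08) and Exo1 without 15 min, 30 min, 1 h, 2 h or 3 h (0.076 to 0.18), while Apex1, Apex2 and Pms2 passed in each of 13 alternatives. With phases moved to 15 min to 2 h, 3 to 12 h, and 24 and 48 h, Ung was no longer called (0.07 untreated, adjusted p = 0.88, and 0.19 stimulated, adjusted p = 0.59), nor Apex2 (0.28, adjusted p = 0.35) and Msh6 (0.12, adjusted p = 0.5) in the untreated arm or Exo1 in the stimulated arm (0.05, adjusted p = 0.77).

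By the late phase, 2 of 7 genes were higher than early in the untreated arm and 0 lower, where 42.6% of all genes passed, 22.6% as higher and 20% as lower. These were Pms2 (0.54 ± 0.09, adjusted p = 0.00074) and Apex1 (0.50 ± 0.15, adjusted p = 0.014). In the stimulated arm 3 of 7 were higher and 0 lower, against 54.9% of all genes, 29.2% as higher and 25.7% as lower. Here Apex2 rose by 1.07 ± 0.17 (adjusted p = 0.00017), Apex1 by 0.57 ± 0.15 (adjusted p = 0.0043) and Pms2 by 0.55 ± 0.09 (adjusted p = 2e-04). Ung was not called, with late values of -0.15 untreated (adjusted p = 0.5) and -0.31 stimulated (adjusted p = 0.14), and Exo1 gave -0.26 (adjusted p = 0.056) and -0.20 (adjusted p = 0.11), none past the threshold. Exo1 did pass as lower in the untreated arm with DESeq2 (adjusted p = 0.042), lane as a term (0.048), a filter of 5 CPM (0.03) and library totals as the only scaling (0.0047), and in the stimulated arm with the last pair (0.048 and 0.0039). The call for Apex1 in the untreated arm was lost without the 30 min, the 12 h or the 24 h pair (adjusted p between 0.056 and 0.075). With moved phases Apex1 was called in neither arm (0.34 untreated, adjusted p = 0.15, and 0.38 stimulated, adjusted p = 0.094). Smug1 then passed as lower in the stimulated arm (-0.33, adjusted p = 0.026).

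**Figure D2:**
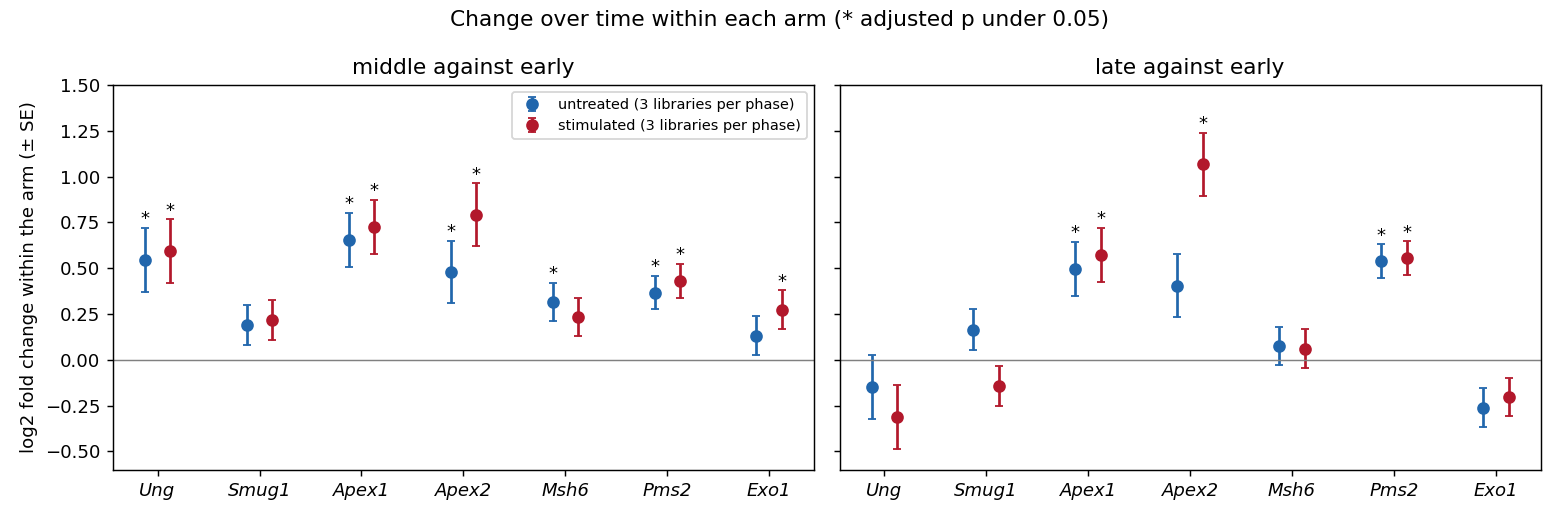
Log2 fold change of each gene within an arm, middle against early phase (left) and late against early phase (right), with bars of 1 SE from the edgeR fit, 3 libraries per phase and arm, blue untreated and red stimulated. Asterisks mark adjusted p under 0.05, and the value of Apex2 in the stimulated late phase, 1.07, is the highest shown.

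For each gene but Smug1, the largest treatment value was smaller in size than the largest change between phases within an arm. Smug1 gave -0.32 between the arms in the late phase, and at most 0.22 between phases within an arm (log2). Of 28 treatment values (7 genes over all times and in 3 phases), 7 passed the threshold. The shares of all genes called were 22.3% over all times, 2.24% early, 20.5% in the middle and 36.1% late. Values over all times reuse the libraries of the phases, so the 28 are not independent. The largest was 1.28-fold, for Apex2 in the late phase. Over all 9 times after 0 min, 1 of 7 genes was higher and 1 lower with the cocktail, against 22.3% of all genes tested, 10.6% higher and 11.7% lower. Ung, the central enzyme of the uracil route, was not called in any phase, at 0.05 early, 0.11 in the middle and -0.12 late (log2, adjusted p = 0.74, 0.26 and 0.18).

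Apex1 was higher in the stimulated library at 9 of 9 times after 0 min, by 0.22 ± 0.03 on the log2 scale over all times (adjusted p = 0.00089). The per-time log2 ratios ran from 0.13 at 15 min to 0.29 at 48 h, each with a counting interval above 0. The 0 min pair already differed by 0.15 (95% counting interval 0.09 to 0.22). In the early phase Apex1 was not called (0.18 ± 0.04, adjusted p = 0.069), and 0 of 7 genes were, where 2.24% of all genes passed, 0.598% higher and 1.64% lower. In the middle phase it was higher by 0.25 ± 0.04 (adjusted p = 0.0035) and in the late phase by 0.24 ± 0.04 (adjusted p = 0.0015). Relative to the 0 min pair these were 0.09 (adjusted p = 0.71) and 0.10 (adjusted p = 0.56), and neither middle nor late values of the other genes passed on that measure, by which 43 of 12139 genes were called in the middle and 847 late. With arms not paired by time the late value of Apex1 was 0.19 (adjusted p = 0.11).

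Msh6 was lower in the stimulated library at 9 of 9 times after 0 min, by -0.11 ± 0.03 over all times (adjusted p = 0.017), with a counting interval below 0 at 7 of the 9 times, and the 0 min pair differed by -0.01. Without the filter on low counts the adjusted p over all times was 0.11, and with arms not paired by time 0.19. In the middle phase it was 1 of the 2 genes called, at -0.16 ± 0.04 (adjusted p = 0.029), where 20.5% of all genes passed, 10.2% higher and 10.3% lower. That middle call was lost without the 2 h, the 3 h or the 6 h pair (adjusted p between 0.067 and 0.11). The late value of Msh6 was -0.10 ± 0.04 (adjusted p = 0.1).

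In the late phase 2 of 7 genes were higher and 1 lower with the cocktail, where 36.1% of all genes passed, 17.8% higher and 18.3% lower. Apex2 was higher by 0.36 ± 0.09 (adjusted p = 0.0093) and Smug1 lower by -0.32 ± 0.07 (adjusted p = 0.0031), beside Apex1. Late Apex2 levels of the 2 arms overlapped, and the stimulated library was above the untreated one at each of the 3 times. Smug1 was below in the stimulated library at each of the 3 late times, by -0.18, -0.45 and -0.29 on the log2 scale.

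Apex2 also had a difference between arms that changed sign from the early to the late phase. Its log2 ratios were 0.07 at 0 min, -0.30, -0.28 and -0.30 in the early phase, -0.21, 0.00 and 0.21 in the middle phase and 0.41, 0.21 and 0.44 late. The early value was -0.30 ± 0.09 (adjusted p = 0.12), and the late minus early difference, tested directly, was 0.66 ± 0.13 (adjusted p = 0.0048). The same test gave -0.33 ± 0.09 for Smug1 (adjusted p = 0.029), and these were the 2 of 7 genes called, 1 in each direction, where 19.7% of all genes passed, 10.2% as higher and 9.52% as lower. The other 5 lay between -0.17 for Ung (adjusted p = 0.21) and 0.07 for Apex1. Ratios of Ung changed sign as well, with 0.16 at 3 h, 0.22 at 6 h and -0.24 at 24 h. Counting intervals of Ung lay above 0 at 4 times and below 0 at 3, beside 4 and 4 for Apex2. Smug1 and Exo1 also had counting intervals on both sides of 0.

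Lane values stood beside these differences. In pairs with the stimulated library in lane 2 and the untreated in lane 1, Apex2 gave 0.07 at 0 min, -0.30 at 1 h, 0.41 at 12 h and 0.21 at 24 h. With lanes 4 and 3 it gave -0.28 at 30 min, 0.00 at 3 h, 0.21 at 6 h and 0.44 at 48 h. Each of these values rests on 1 library per arm, and within a phase lane and arm cannot be told apart. With lane as a term the late minus early difference of Apex2 was 0.61 (adjusted p = 0.022) and that of Smug1 -0.33 (adjusted p = 0.085). Smug1's difference was also lost without the 15 min, 30 min, 1 h or 24 h pair (adjusted p between 0.072 and 0.11). In a fit with a spline of time and lane, chosen after seeing the data, 0 of 7 genes were called in any treatment comparison, Apex2's late minus early difference included (0.58, adjusted p = 0.093). That fit called 0 of all 12042 genes over all times and 0 early, 21 in the middle, 185 late and 442 for late minus early, so a count of 0 there says little about these 7.

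**Figure D3:**
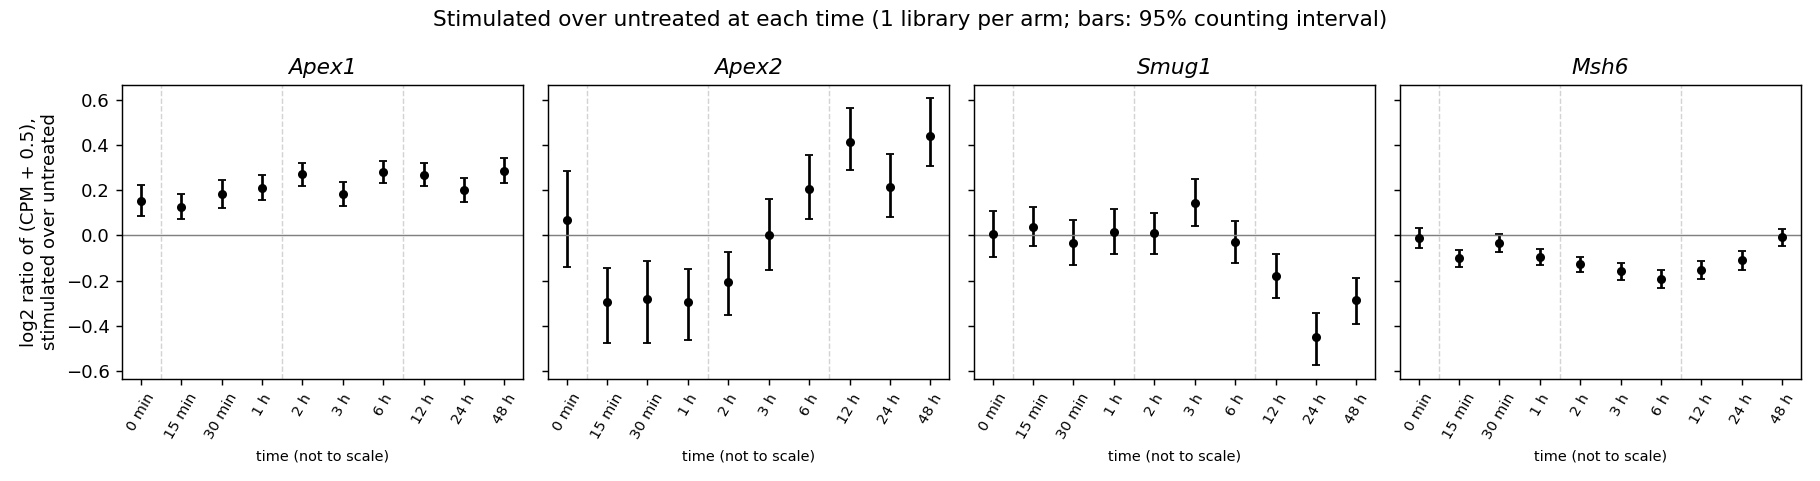
Log2 ratio of CPM plus 0.5, stimulated over untreated, at each of the 10 times for Apex1, Apex2, Smug1 and Msh6, with bars for 95% counting intervals of 1 library per arm and dashed lines between phases. Apex1 is above 0 at each time, Apex2 goes from -0.30 at 15 min to 0.44 at 48 h, and Smug1 is at -0.45 at 24 h.

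**Figure D4:**
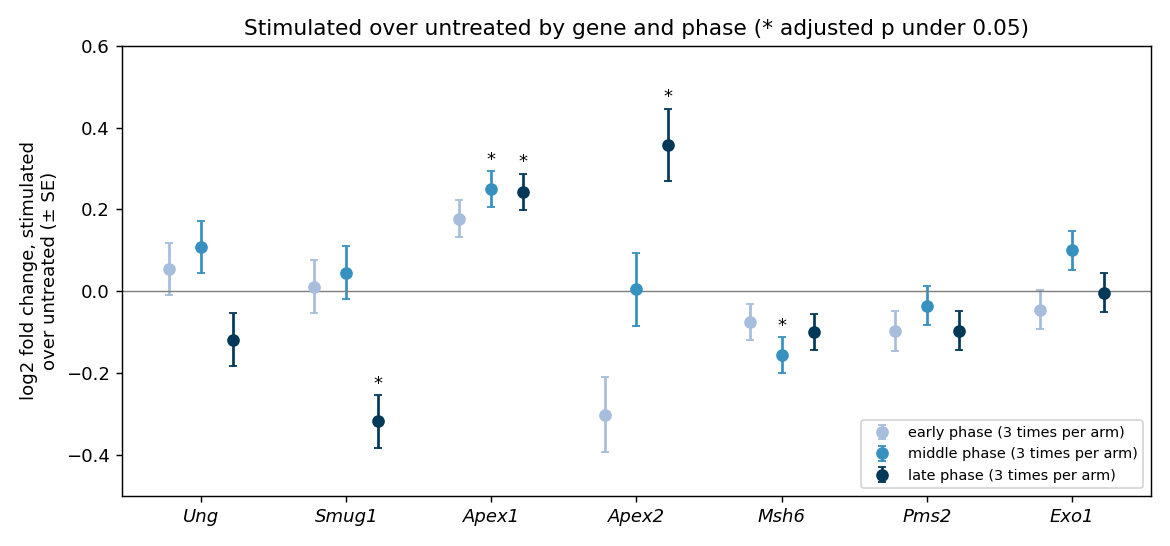
Stimulated over untreated by gene and phase, as log2 fold change with bars of 1 SE from the edgeR fit, 3 times per arm and phase. Asterisks mark adjusted p under 0.05, which 5 of the 21 points reached, 2 of Apex1 and 1 each of Apex2, Smug1 and Msh6. Of all genes tested, 2.24% passed early, 20.5% in the middle and 36.1% late.

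The genes with the most similar pattern over the 20 libraries, by Pearson r of log2 levels among 9097 genes, were Mrpl43 (0.962), Atxn7l3 (0.962) and Spryd3 (0.956) for Ung and Mfsd5 (0.964), Nxt1 (0.947) and Ccdc85b (0.940) for Exo1. For Apex1 they were Umps (0.974), Nsfl1c (0.973) and Eif3g (0.970), for Apex2 Pfkfb3 (0.963), Dhps (0.961) and Ddx31 (0.961), and for Pms2 Kri1 (0.973), Carm1 (0.967) and Dlst (0.963). Msh6 was most like Cog1 (0.964), Birc6 (0.955) and Atn1 (0.951). Smug1 had the least close match, Csf2rb at 0.873, followed by Pdrg1 (0.845) and Fam179a (0.826). Within the set, Apex2 and Pms2 had r = 0.87, Apex1 and Apex2 0.85, Ung and Msh6 0.76 and Apex1 and Pms2 0.75, while Ung and Pms2 had 0.10, Pms2 and Exo1 -0.12, and Smug1 no more than 0.37 with any other. All these values share the same libraries and the same time course.

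Of 16 other base excision repair genes measured, 0 were higher and 4 lower with the cocktail in the late phase, where 17.8% of all genes were higher and 18.3% lower, with a median over the list of -0.06 on the log2 scale, beside 0.00 over all genes tested. The thymine and uracil glycosylase Mbd4 was lower by -0.71 ± 0.09 (adjusted p = 0.00018), Xrcc1, the scaffold of single-strand break repair, by -0.58 ± 0.06 (adjusted p = 5.6e-05), Neil3 by -0.33 ± 0.09 (adjusted p = 0.013) and the strand-break sensor Parp1 by -0.27 ± 0.05 (adjusted p = 0.0013). The late minus early difference passed for 3 of 16, Mbd4 (-0.81 ± 0.13), Xrcc1 (-0.68 ± 0.09) and Parp1 (-0.29 ± 0.07). By that test 19.7% of all genes passed, 10.2% as higher and 9.52% as lower. From the early to the late phase 6 of 16 were higher and 2 lower untreated (22.6% and 20% of all genes), and 7 higher and 5 lower stimulated (29.2% and 25.7% of all genes).

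Of 5 other mismatch repair genes, 0 were higher and 2 lower in the middle than in the early phase of either arm (11.9% of all genes lower untreated and 19.3% stimulated), the MutL subunits Mlh3 (-0.65 untreated, -0.73 stimulated) and Pms1 (-0.43 and -0.48). Pms2 of the same protein family rose in both arms (0.37 and 0.43). With the cocktail Msh3, the subunit for larger loops, was lower in the middle phase by -0.26 ± 0.05 (adjusted p = 0.0054), beside the -0.16 of Msh6. It was the 1 gene of the 5 called there, where 10.3% of all genes were lower and 10.2% higher.

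Of 14 genes of the replication clamp, its loader, single-strand binding and gap filling, 8 were higher and 0 lower in the middle than in the early phase of each arm (13.6% of all genes higher untreated and 22.1% stimulated), with medians of 0.37 untreated and 0.41 stimulated beside 0.00 over all genes. Pcna, the clamp, rose by 0.84 and 0.92, and the flap nuclease Fen1 by 0.70 and 0.90. By the late phase 12 were higher untreated and 11 stimulated, with 0 lower, where 22.6% and 29.2% of all genes were higher. Between the arms 3 were lower in the late phase (Pold1 -0.30, Rfc5 -0.27 and Pold3 -0.26) and 0 higher, beside 18.3% and 17.8% of all genes.

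Enzymes that set the supply of dUTP and thymidylate, 10 measured, were higher in the middle phase for 5 genes untreated and 7 stimulated (13.6% and 22.1% of all genes), with 1 lower in each. Dut, which destroys dUTP and so limits uracil in new DNA, rose by 0.71 untreated and 0.96 stimulated in the middle phase and by 1.25 and 1.54 in the late phase. The late treatment comparison had 2 higher and 3 lower (17.8% and 18.3% of all genes), led by the dNTP hydrolase Samhd1 (-0.56 ± 0.05, adjusted p = 2.3e-05) and thymidine kinase Tk1 (-0.51 ± 0.12, adjusted p = 0.0063).

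Of 15 S phase genes measured, 10 were higher untreated and 12 stimulated in the middle phase, when Ung, Exo1 and Msh6 had their highest libraries, and 0 were lower (13.6% and 22.1% of all genes higher), with medians of 0.56 and 0.67, led by the G1/S cyclins Ccne2 (1.54 and 2.06) and Ccne1 (1.04 and 1.25). In the late phase 12 and 11 were higher (22.6% and 29.2% of all genes), with medians of 0.72 and 0.67, and Ung and Exo1 were not called. The part of the cell cycle in the course of the repair genes was not tested. In the late treatment comparison 1 S phase gene was higher (Gins2, 0.17) and 6 lower, beside 17.8% and 18.3% of all genes, led by Mki67 (-0.41 ± 0.06, adjusted p = 0.00027) and Cdt1 (-0.34 ± 0.05, adjusted p = 0.00047).

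Translesion polymerases and clamp ubiquitination genes, 13 measured, had 0 higher and 1 lower in the middle phase untreated (25.4% of all genes called) and 2 higher and 3 lower stimulated (41.3% of all genes called). Poli, a translesion polymerase, fell by 1.13 untreated and by 1.23 stimulated. In the late treatment comparison 1 was higher and 2 lower, beside 17.8% and 18.3% of all genes. Poli was lower by -0.45 ± 0.09 (adjusted p = 0.0037), Shprh lower by -0.20 and its relative Hltf, a clamp ubiquitin ligase, higher by 0.39 ± 0.08 (adjusted p = 0.0022). Of 11 measured genes of AID and proteins that work with it, 2 were higher in the middle phase untreated and 5 stimulated (13.6% and 22.1% of all genes), and late 5 and 8 (22.6% and 29.2% of all genes), with 0 lower in each. Paxip1, an adaptor protein at switch regions, rose by 0.80 and by 0.79 in the middle phase. Late with the cocktail Paxip1 was lower by -0.17 ± 0.05 (adjusted p = 0.03). Prkaca, the kinase subunit that phosphorylates AID, was higher by 0.27 ± 0.07 there (adjusted p = 0.0096). Over this list 2 genes were higher and 1 lower in the late treatment comparison, beside 17.8% and 18.3% of all genes. In the early treatment comparison 0 genes were called in each of these 7 lists, where 2.24% of all genes passed.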

How the data were processed

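Per the submitters' processing notes the deposited values are counts per gene from HTSeq after STAR alignment to GRCm38.p3 (mm10). For versions, strand setting and annotation release, the entry is: not given in the sources used here. From these counts edgeR 4.0.16 (R 4.3.3) was fitted by quasi-likelihood with TMM scaling on genes reaching 1 CPM in 3 or more libraries, 12042 genes for the treatment fits (18 libraries, 0 min left out) and 12139 for those of all 20, with Benjamini-Hochberg adjustment over all of them at 0.05. Treatment fits paired the arms by time, and changes within an arm were tested in a fit of phase by arm. The SE was the log2 fold change divided by the square root of F. Single-time ratios used log2 of CPM plus 0.5, with intervals for counting error only. Depth ran from 36873155 to 60918651 counts.

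The 7 genes and all lists were chosen with earlier results of these data known. Named were all 7 genes, the 3 genes most alike to each by Pearson r (mean CPM of at least 5), and per list up to 4 called genes with the largest change, from which a selection is given. Some list genes are not reported here. The submitters' sample sheet was not used. Alternatives were RLE and library-total scaling, DESeq2 1.42.0, other filters, lane, left-out times, moved phases, the 0 min pair, splines and a pseudocount of 2 CPM. The fits were also run on simulated counts that held no lane or animal differences, so that run does not bear on these.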

Additional observations from a re-analysis of the deposited data

Results flagged for a closer look

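The difference between arms was not the same in the late as in the early phase for Apex2 and Smug1, by the direct test of late minus early. For Apex2 it was 0.66 on the log2 scale, from lower in the stimulated library at all 3 early times to higher at all 3 late times. For Smug1 it was -0.33, with a late difference of -0.32 and an early one of 0.01. The late minus early call was lost in 7 of 14 alternatives for Smug1 and in 1 of 14 for Apex2. The F-test of a course differing between arms called neither (adjusted p = 0.14 for Apex2 and 0.44 for Smug1). Neither arm had a gene among the 7 with a single library standing apart from the other 9 by Dixon's criterion. The libraries of an arm are of different times and not replicates, so the criterion cannot separate an aberrant library from the course over time.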

How the results depend on the processing

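Among 1099 values of single genes under alternatives, 997 kept direction and side of the threshold, 80 were lost, 22 gained and 0 reversed while called, and 57 uncalled ones changed sign. Scaling by library totals put the median of all genes, near 0 otherwise, at -0.12 to -0.14 in late against early (both arms) and in stimulated middle against early. Counts of the 7 genes called that moved by over 1.5 times are given first, and the causes were not tested. Without a filter, all times gave 1, the middle treatment comparison 1, late minus early 1 and untreated middle 3. Library totals gave 5 in the late treatment comparison, 3 in untreated middle and 5 in stimulated late, where Ung (-0.46) and Exo1 (-0.35) were lower. Lane as a term gave 1 for late minus early, 2 for untreated middle and 4 for untreated late. DESeq2 gave 1 for the course differing between arms. Moved phases gave 1 early, 2 in untreated middle, 3 in stimulated middle and 1 in untreated late. Relative to the 0 min pair, middle and late treatment gave 0 and 0. A spline of time without pairing gave 1 over all times and 1 in the middle, and with lane (added after seeing the data) 0 over all times, 0 in the middle, 0 late and 0 for late minus early. With each time left out in turn, counts were 2 to 2 over all times, 0 to 0 early, 1 to 1 in the middle, 3 to 4 late, 1 to 2 for late minus early, 0 to 4 in untreated middle, 3 to 6 in stimulated middle, 1 to 3 in untreated late, 3 to 4 in stimulated late, 6 to 7 for the common course and 0 to 1 for the differing course.

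Smaller moves were 3 in untreated late (DESeq2, 5 CPM filter, library totals), 4 in stimulated middle (5 CPM filter, no filter, library totals), 4 in stimulated late (5 CPM filter), 3 over all times (5 CPM filter, library totals, 0 min pair included), 2 late (spline without pairing, Apex1 lost) and 6 for the common course (spline of 2 degrees of freedom). In the fits paired by time, lane is aliased with arm over all times and within a phase, and was not run there. Replicate numbers are absent from the labels, so time gave the only pairing. With 1 animal per arm, no spread between animals was measured.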
